A study of Mus musculus with 9 samples.

Results

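The 39 genes described here encode the enzymes, carriers and regulators of hepatic fatty acid oxidation, together with ketone body enzymes and targets of the nuclear receptor PPARα. They were taken as the rows of the deposited count table whose symbol was on a list of genes with these roles. The list was drawn up with earlier results of these data known. All 39 were found among the 24411 genes of the table. Poly(A) RNA of 9 whole livers from 3-month-old mice was sequenced, 3 livers for each of 3 genotypes. All mice carried floxed Atg7, an essential autophagy gene, on both alleles (Atg7flox/flox), were of C57BL/6 background and ate a standard diet freely. The control livers, called cont. as in the study, had no Cre recombinase. The Atg7-KO livers (Atg7flox/flox;Alb-Cre) also expressed Cre from the albumin promoter, so that Atg7 is lost from hepatocytes. How far the other cells of the liver keep it was not measured here. The S351A livers (Atg7flox/flox;Alb-Cre;p62S351A/p62S351A) carried in addition a knock-in allele of the autophagy receptor p62 with lower affinity for KEAP1, the inhibitor of the transcription factor NRF2. The genotype entries of S351A replicates 2 and 3 give other p62 positions than their titles, which were followed. The comparison of Atg7-KO with cont. asks what loss of hepatocyte autophagy does to these transcripts, and that of S351A with Atg7-KO asks whether weaker KEAP1 binding by p62 alters it.

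In hepatocytes, long-chain fatty acids are bound by carrier proteins, activated to acyl-CoA, passed into mitochondria as acylcarnitines and shortened by beta-oxidation, whose electrons reach the respiratory chain through the electron transfer flavoprotein. Very long and branched chains are first shortened in peroxisomes, cytochromes of the Cyp4a family oxidise the far (omega) end of the chain, and surplus acetyl-CoA leaves the liver as ketone bodies. PPARα is a fatty acid-activated nuclear receptor and a main transcriptional activator of these steps in fasting liver. It binds DNA as a dimer with RXR at a direct repeat of the half-site AGGTCA with 1 base between the copies.

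This repeat was searched for on both strands in the RefSeq promoter windows of build GRCm38.p6, each running from 250 bases before to 50 bases after a transcription start. Windows were found for 31 of the 39 genes, 35 in all. None held the repeat without a mismatch in its 12 fixed bases, against 0.0396% of all 32851 windows. With at most 1 mismatch it was found in 2.86% of the members' windows (1 of 35) and 0.554% of all windows, and with at most 2 mismatches in 11.4% (4 of 35) and 3.86%. The members' windows differ from the rest in base composition, with a median GC content of 60.3% and 16 CpG dinucleotides against 52.7% and 7 over all windows, and the shares were not matched for it. The matches are shown because the repeat is the receptor's element, and capitals mark the match, which stands on the gene's own strand for Creb3l3 and Slc25a20 and on the other strand for Fabp1 and Etfa. The sequences read 5′ to 3′ along the gene, with coordinates of GRCm38.p6.
Fabp1, chr6:71199797-71199839, + strand, 1 mismatch, match starting 67 bases before the RefSeq start: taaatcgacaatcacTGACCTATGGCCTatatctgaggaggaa
Etfa, chr9:55512293-55512335, - strand, 2 mismatches, match starting 77 bases before the start: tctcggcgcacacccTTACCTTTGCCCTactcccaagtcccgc
Creb3l3, chr10:81092773-81092815, - strand, 2 mismatches, match starting 209 bases before a start inside the gene: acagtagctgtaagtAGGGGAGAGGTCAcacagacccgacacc
Slc25a20, chr9:108662142-108662154, + strand, 2 mismatches, within the first exon: AGGTGAAAGGTCG
Of these 4 genes, Fabp1, Etfa and Creb3l3 were among the members called lower in Atg7-KO against cont. and Slc25a20 was not. A match is a stretch of letters and not evidence of binding, and windows of Cyp4a10, Cyp4a14, Crat, Vnn1, Decr1, Acaa2, Acat1 and Hsd17b4 were not analysed here.

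Library totals lay between 713841 and 15426575 counts, and each of the S351A libraries (713841 to 792372) was smaller than each of the others, so that depth and the p62 allele cannot be told apart. Levels are CPM, the counts of a gene scaled to a fixed library size after TMM normalisation, on which 3 counts in a library, taken as the floor, correspond to between 0.267 and 3.70 CPM. By Xist and Y-linked transcripts, cont. replicate 2 and replicates 2 and 3 of both mutant groups came from females and the other 4 livers from males. Atg7 itself, whose remaining reads can come from other cells or from exons outside the deletion, stood at 44.8, 57.3 and 42.1 CPM in cont., 29.9, 27.8 and 28.2 in Atg7-KO and 21.7, 24.7 and 22.1 in S351A. It was lower in Atg7-KO (log2 fold change -0.74 ± 0.24, SE, adjusted p = 0.00757) and in S351A (-1.07 ± 0.30, adjusted p = 0.00318).

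Loss of Atg7 was accompanied by lower levels of most of these genes. With a gene called when its adjusted p was below 0.05 and its fold change above 1.5, 26 of the 39 members fell in Atg7-KO against cont. and none rose, where 18.1% of the 11199 genes tested were called lower and 19.9% higher. DESeq2 gave the same counts, 26 lower and 0 higher, and no member had an unadjusted p below 0.05 in the higher direction (23.9% of all genes). Of the 39 fitted changes, 35 were below 0, and their median was -1.21 on the log2 scale against -0.03 over all genes tested. In 28 members every Atg7-KO library lay below every cont. library, which held for 24.9% of all genes, and in no member did they all lie above, which held for 26.7%. In S351A against cont., 26 members fell and 0 rose (all genes: 13% lower, 15.6% higher), with a median of -1.13 against -0.03, and every S351A library lay below every cont. library in 23 members (18.4% of all genes) and above in 0 (19.6%). DESeq2 called 24 members lower and 0 higher there (7.04% of 19081 genes lower), and without S351A replicate 2 edgeR called 17 lower (7.51% of all genes). Without cont. replicate 2, 2 members (Crat and Vnn1) were called higher in Atg7-KO and 1 in S351A. Scaling by total counts alone moved the median of all genes from -0.03 to 0.51 in Atg7-KO and to 0.46 in S351A. Relative to those medians the members' medians were -1.20 and -1.12, with 19 and 13 members called lower, 2 and 1 higher, and all genes then split into 801 lower and 4284 higher in Atg7-KO and 512 and 3498 in S351A. Both comparisons share the cont. libraries and are not independent. In whole liver, fewer hepatocytes and less RNA per hepatocyte cannot be told apart.

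The 39 genes together took 1.27%, 1.56% and 1.57% of the counts in the cont. libraries, 0.600%, 0.658% and 0.630% in Atg7-KO, and 0.587%, 0.620% and 0.998% in S351A. Cont. had the highest shares throughout, and S351A replicate 3 stood above the other mutant libraries. Relative to the mean of cont., the median over the members was -1.31, -1.06 and -1.16 on the log2 scale in the Atg7-KO libraries and -1.19, -1.13 and -0.66 in those of S351A. Among the S351A libraries, replicate 3 held the highest level of 32 members. Within cont., replicate 2 was highest for 24 members and replicate 1 lowest for 24, and the libraries of cont. themselves had medians of -0.32, 0.28 and -0.01. The members' median SD of log2 CPM was 0.41 in cont. (0.36 over all genes), 0.17 in Atg7-KO (0.19) and 0.34 in S351A (0.37).

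**Figure D1:**
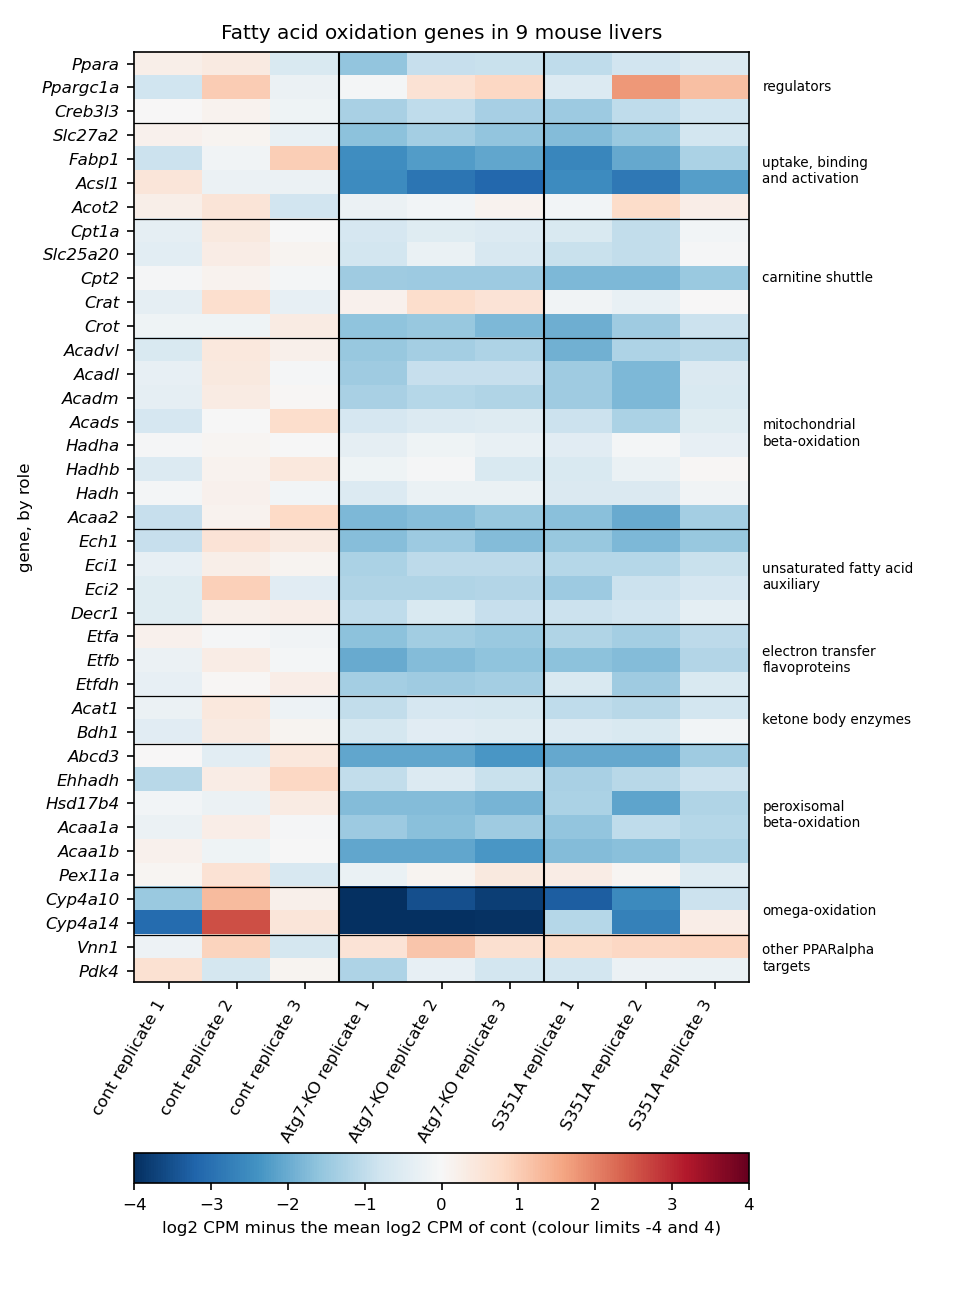
Heat map of the 39 genes (rows, by role) in the 9 libraries (columns), coloured by log2 CPM minus the mean log2 CPM of cont., with colours saturating at -4 and 4, which some of the Atg7-KO libraries pass for Cyp4a14 and Cyp4a10. Most rows are blue in all 6 mutant libraries, S351A replicate 3 is paler than its group, and Ppargc1a, Acot2, Crat, Pex11a and Vnn1 do not follow the rest.

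Among the regulators, the receptor itself was lower. Ppara (chromosome 15, 85734983 to 85802819, + strand, mm10) stood at 222, 244 and 125 CPM in cont., 63.1, 99.1 and 102 in Atg7-KO and 92.4, 112 and 127 in S351A. Its Atg7-KO libraries lay below all cont. libraries, whereas S351A replicate 3 was just above cont. replicate 3. The change was -1.16 ± 0.36 (log2, SE) in Atg7-KO (adjusted p = 0.0064) and -0.83 ± 0.34 in S351A (adjusted p = 0.0479), the latter lost when any of 6 single libraries was left out, with adjusted p up to 0.157 without S351A replicate 1. Creb3l3, a liver transcription factor of fasting that acts with PPARα, measured 377, 406 and 330.0 CPM in cont., 151, 183 and 146 in Atg7-KO and 133, 184 and 214 in S351A, with no overlap of either mutant group with cont. It fell by 1.21 ± 0.32 (adjusted p = 0.00129) in Atg7-KO and by 1.07 ± 0.31 (adjusted p = 0.00488) in S351A. Ppargc1a, the coactivator PGC-1alpha, was measured from few counts, 6 to 29 in the S351A libraries, and gave 5.68, 21.7 and 8.81 CPM in cont., 9.67, 15.7 and 19.1 in Atg7-KO and 6.84, 35.8 and 24.5 in S351A. These groups overlapped throughout, and its change in Atg7-KO (0.26 ± 0.52, adjusted p = 0.726) turned below 0 without cont. replicate 1 or 3 (-0.01 and -0.04).

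Uptake, binding and activation held some of the largest differences. Acsl1 (chromosome 8, + strand) encodes the main long-chain acyl-CoA synthetase of hepatocytes, which activates fatty acids for oxidation and for lipid synthesis. It measured 1627, 983 and 977 CPM in cont., 201, 153 and 129.9 in Atg7-KO and 204, 160.3 and 251 in S351A, with all 6 mutant libraries far below the lowest of cont. The change was -2.89 ± 0.57 (adjusted p = 2.61e-05), a level 7.4-fold lower, in Atg7-KO and -2.54 ± 0.53 (adjusted p = 0.00012) in S351A. Fabp1, the abundant fatty acid-binding protein of liver cytosol, varied widely within cont., at 2272, 3752 and 8094 CPM, and stood at 733, 875 and 974 in Atg7-KO and 667, 997 and 1706 in S351A. All 6 mutant libraries were below all cont. libraries. It was 5.47-fold lower in Atg7-KO (log2 -2.45 ± 0.65, adjusted p = 0.00137), and without cont. replicate 3 the change shrank to -1.81 and the adjusted p was 0.00245. In S351A the change was -2.07 ± 0.61 (adjusted p = 0.00561), or -1.43 without that library. Slc27a2, a fatty acid transporter that also activates very-long-chain acids, was at 2219, 2129 and 1596 CPM in cont., 631, 756 and 655 in Atg7-KO and 587, 705 and 1184 in S351A. It fell by 1.54 ± 0.41 (adjusted p = 0.00138) and by 1.26 ± 0.38 (adjusted p = 0.00685), with S351A replicate 3 between the other mutant libraries and cont. Acot2, a mitochondrial thioesterase that releases fatty acids from CoA, overlapped among all groups. Its levels were 18.9, 23.4 and 9.25 CPM in cont., 13.6, 15 and 17.7 in Atg7-KO and 14.8, 27.1 and 19.6 in S351A, its change in Atg7-KO -0.10 ± 0.35 (adjusted p = 0.847), positive without cont. replicate 2 (0.26) and when scaled by total counts alone (0.42), and 21.2% of its read-length windows also occur in other genes, chiefly Acot1.

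The carnitine shuttle was split. Cpt2, the inner-membrane transferase that turns acylcarnitine back into acyl-CoA, stood at 209.6, 238 and 208 CPM in cont., 81.5, 79.5 and 80.0 in Atg7-KO and 62.7, 62.9 and 77.2 in S351A. Replicates were close, and both mutant groups lay far below cont., by 1.44 ± 0.31 (adjusted p = 0.000108) and 1.69 ± 0.35 (adjusted p = 9.88e-05). Crot, the octanoyltransferase that exports chains shortened in peroxisomes, measured 501, 498 and 709 CPM in cont., 185, 194 and 159 in Atg7-KO and 145, 207 and 309 in S351A. It fell by 1.66 ± 0.42 (adjusted p = 0.000724) and 1.37 ± 0.39 (adjusted p = 0.00394). The remaining carriers passed neither test against cont. Cpt1a, the rate-limiting outer-membrane transferase, was at 107, 183 and 136 CPM in cont., 87.1, 98 and 95.4 in Atg7-KO and 90.1, 70.3 and 129 in S351A. Every Atg7-KO library was below every cont. library, yet the change of -0.61 ± 0.28 missed the threshold (adjusted p = 0.077), and it passed without cont. replicate 1 (adjusted p = 0.0306) or without S351A replicate 3 (0.0465). Slc25a20, the carnitine-acylcarnitine translocase, gave 102, 165 and 147 CPM in cont., 80.9, 111 and 86.8 in Atg7-KO and 73.0, 67.8 and 129.9 in S351A. Its groups overlapped, with a change of -0.57 ± 0.30 in Atg7-KO (adjusted p = 0.117, or 0.0486 without cont. replicate 1). Crat, which moves acetyl groups to carnitine, was at 32.2, 66.4 and 33.2 CPM in cont., 46.3, 67.4 and 60.4 in Atg7-KO and 37.6, 33.3 and 41.7 in S351A. The change was 0.40 ± 0.29 in Atg7-KO (adjusted p = 0.274), and without cont. replicate 2, the highest of its group, it was 0.81 with an adjusted p of 0.0135.

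In mitochondrial beta-oxidation, the acyl-CoA dehydrogenases of longer chains and the thiolase Acaa2 fell, and the trifunctional protein did not pass the test. Acadvl, the very-long-chain dehydrogenase, stood at 202, 412 and 358 CPM in cont., 108, 121 and 132 in Atg7-KO and 81.0, 131 and 145 in S351A, and its change was -1.43 ± 0.40 (adjusted p = 0.00215) and -1.45 ± 0.41 (adjusted p = 0.00367). Acadl, the long-chain enzyme, was at 217, 359 and 263 CPM, 102, 146 and 144 CPM and 102, 78.9 and 185 CPM in the same order of groups. It fell by 1.1 ± 0.38 in Atg7-KO (adjusted p = 0.0144, 0.0746 without Atg7-KO replicate 1) and by 1.20 ± 0.40 in S351A (adjusted p = 0.0143, a call lost without S351A replicate 1, 0.0650, or S351A replicate 2, 0.0691). Acadm, the medium-chain dehydrogenase, measured 224, 368 and 298 CPM in cont., 117, 132 and 126 in Atg7-KO and 107, 82.6 and 192 in S351A. Its changes were -1.25 ± 0.38 (adjusted p = 0.00538) and -1.22 ± 0.39 (adjusted p = 0.0099, or 0.0506 without S351A replicate 2), and for all these dehydrogenases every mutant library was below every cont. library.

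Acads, the short-chain dehydrogenase, was less clearly separated, at 24.6, 39.2 and 64.9 CPM in cont., 24.9, 26.7 and 27.7 in Atg7-KO and 21.7, 16.0 and 28.2 in S351A. The Atg7-KO change of -0.75 ± 0.34 missed the threshold (adjusted p = 0.0649, or 0.00852 without cont. replicate 1), and the S351A change of -1.01 ± 0.40 passed it (adjusted p = 0.044, up to 0.166 with a single library left out). Acaa2, a mitochondrial thiolase of beta-oxidation, ranged widely in cont. at 216, 452 and 727 CPM and was at 119, 125 and 144 in Atg7-KO and 130.0, 102 and 161 in S351A. All mutant libraries were lower than all of cont., with changes of -1.85 ± 0.50 (adjusted p = 0.00173) and -1.83 ± 0.51 (adjusted p = 0.00333).

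Hadha and Hadhb encode the alpha and beta subunits of the trifunctional protein, which carries out the later steps of the cycle on long chains, and lie head to head on chromosome 5 (30118304 to 30155162, - strand, and 30155248 to 30184593, + strand). Hadha had the smallest spread of all members within cont., at 208, 226 and 212 CPM in cont., 167, 189 and 174 in Atg7-KO and 155, 202 and 172 in S351A. Its mutant libraries were all below those of cont., but the change was -0.28 ± 0.20 in Atg7-KO (adjusted p = 0.26, 95% interval -0.68 to 0.11), and on the scale of total counts the sign turned (0.25). Hadhb, of whose read-length windows 51.0% also occur in other gene models, mainly Gm13910, gave 54.9, 89.2 and 109 CPM in cont., 72.6, 79.5 and 53.2 in Atg7-KO and 52.5, 67.8 and 84.5 in S351A. Its change was -0.32 ± 0.28 in Atg7-KO (adjusted p = 0.378), or 0.24 on the scale of total counts. Hadh, the short-chain hydroxyacyl-CoA dehydrogenase, stood at 265, 315 and 260.0 CPM in cont., 189, 232 and 232 in Atg7-KO and 188, 185 and 252 in S351A. It too lay below cont. in all mutant libraries without passing the test (-0.36 ± 0.23, adjusted p = 0.195), and on total counts its change was 0.16.

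The auxiliary enzymes that prepare unsaturated fatty acids for the cycle all fell, 4 of 4 in each comparison with cont. Ech1, a dienoyl-CoA isomerase, was at 150.3, 411 and 364 CPM in cont., 87.1, 104 and 84.1 in Atg7-KO and 98.1, 80.1 and 99.2 in S351A, with changes of -1.76 ± 0.46 (adjusted p = 0.00106) and -1.74 ± 0.46 (adjusted p = 0.00225). Eci1, the mitochondrial enoyl-CoA isomerase, measured 164, 245 and 224 CPM, 87.1, 99.4 and 101 CPM and 94.7, 94.9 and 112 CPM in cont., Atg7-KO and S351A. It fell by 1.14 ± 0.30 (adjusted p = 0.0011) and by 1.07 ± 0.30 (adjusted p = 0.00312), and no mutant library reached the cont. range. Eci2, its relative found in peroxisomes as well, was at 96.6, 262 and 99.1 CPM in cont., 58.5, 58.1 and 60.4 in Atg7-KO and 49.0, 74.0 and 85.8 in S351A. Cont. replicate 2 set the size of this difference: the change was -1.37 ± 0.45 in Atg7-KO (adjusted p = 0.00919) and -0.74 without that library (0.0224), and in S351A -1.13 ± 0.44 (adjusted p = 0.0365) and -0.51 without it (0.129). The S351A call was lost without any of 6 single libraries (adjusted p up to 0.139). Decr1, the mitochondrial dienoyl-CoA reductase, gave 89.7, 145 and 149.9 CPM in cont., 62, 81.3 and 65.4 in Atg7-KO and 68.4, 74.0 and 94.3 in S351A. Its changes of -0.89 ± 0.30 (adjusted p = 0.0103) and -0.71 ± 0.29 (adjusted p = 0.0467) were the smallest of the group, and they were no longer called without Atg7-KO replicate 1 in the former (0.0569) and without any of 7 single libraries in the latter (up to 0.153).

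All 3 genes of the electron transfer flavoprotein path to ubiquinone fell in both mutant genotypes, with no library of either overlapping cont. Etfa, the alpha subunit, was at 744, 638 and 588 CPM in cont., 208, 248 and 235 in Atg7-KO and 286, 256 and 315 in S351A. The changes were -1.51 ± 0.34 (adjusted p = 0.000179) and -1.20 ± 0.31 (adjusted p = 0.00151). Etfb, the beta subunit, measured 655, 939 and 729 CPM in cont., 188, 229 and 253 in Atg7-KO and 248, 232 and 341 in S351A. It fell by 1.80 ± 0.40 (adjusted p = 0.000169) and 1.5 ± 0.37 (adjusted p = 0.00101), and 52.5% of its read-length windows lie in an overlapping gene model, Gm45233, that is no row of the table. Etfdh, the oxidoreductase that passes the electrons on, was at 56.2, 72.4 and 84.9 CPM in cont., 27.0, 25.7 and 26.8 in Atg7-KO and 45.6, 25.9 and 45.3 in S351A. Its Atg7-KO libraries were nearly equal and S351A replicates 1 and 3 stood above them, with changes against cont. of -1.44 ± 0.35 (adjusted p = 0.000451) and -0.88 ± 0.30 (adjusted p = 0.0173, or 0.0703 without S351A replicate 2).

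Of the ketone body enzymes on the list, Acat1, the mitochondrial acetoacetyl-CoA thiolase, was at 305, 479 and 310.1 CPM in cont., 179, 223 and 219 in Atg7-KO and 178, 166 and 213 in S351A, all mutant libraries below cont. It fell by 0.82 ± 0.29 in Atg7-KO (adjusted p = 0.0161), a call lost without cont. replicate 2 (0.0665) or Atg7-KO replicate 1 (0.0803), and by 0.97 ± 0.31 in S351A (adjusted p = 0.00982). Bdh1, which reduces acetoacetate to beta-hydroxybutyrate, measured 104, 183 and 154 CPM in cont., 86.6, 104 and 99.95 in Atg7-KO and 98.1, 93.7 and 131 in S351A. Its Atg7-KO change of -0.61 ± 0.27 missed the threshold (adjusted p = 0.0603) and passed it without cont. replicate 1 (0.0122) or S351A replicate 3 (0.0484).

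In peroxisomal beta-oxidation, 5 of 6 genes fell in each comparison with cont. Abcd3, the membrane transporter that brings branched and long-chain acyl-CoA into peroxisomes, was at 294, 219 and 388 CPM in cont., 68.9, 68.8 and 57.7 in Atg7-KO and 70.7, 70.3 and 109 in S351A. It was 4.61-fold lower in Atg7-KO (log2 -2.20 ± 0.46, adjusted p = 6.56e-05) and 3.61-fold lower in S351A (-1.85 ± 0.43, adjusted p = 0.000464). Acaa1b (chromosome 9, 119148023 to 119157093, - strand), a peroxisomal thiolase, measured 2405, 1871 and 2106 CPM in cont., 497, 501 and 423 in Atg7-KO and 641, 659.6 and 887 in S351A. The groups were ordered without overlap, cont. above S351A and S351A above Atg7-KO. Against cont., it fell by 2.17 ± 0.44 (adjusted p = 4.17e-05) and 1.54 ± 0.37 (adjusted p = 0.000688). Its near-identical neighbour Acaa1a (119339676 to 119350299, + strand) gave 191, 271 and 214 CPM in cont., 80.9, 69.9 and 82.2 in Atg7-KO and 74.1, 111 and 102 in S351A, with changes of -1.54 ± 0.35 (adjusted p = 0.000235) and -1.24 ± 0.32 (adjusted p = 0.00191). Since 37.8% of the windows of Acaa1b and 27.3% of those of Acaa1a occur in other genes, chiefly in each other, the split of reads between them is uncertain.

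Hsd17b4, the D-bifunctional enzyme of peroxisomes, was at 319, 294 and 435 CPM in cont., 104, 104 and 95 in Atg7-KO and 143, 78.9 and 148 in S351A, changed by -1.79 ± 0.42 (adjusted p = 0.000265) and -1.5 ± 0.39 (adjusted p = 0.00159). Ehhadh, the L-bifunctional enzyme and a classical PPARα target, was at 48.0, 128 and 187 CPM in cont., 53.2, 70.9 and 55.9 in Atg7-KO and 42.2, 48.1 and 57.6 in S351A. Cont. replicate 1 lay within the mutant range. The calls of -1.03 ± 0.42 (adjusted p = 0.0411) and -1.32 ± 0.47 (adjusted p = 0.0244) were lost without cont. replicate 3 (0.185 and 0.0898), the Atg7-KO call without any of 7 single libraries, and the S351A call also without S351A replicate 1 (0.0933) or S351A replicate 2 (0.0803). Pex11a, a peroxisome division factor, stood at 22.1, 31.8 and 13.3 CPM in cont., 17.3, 22.8 and 27.7 in Atg7-KO and 26.2, 22.2 and 14.7 in S351A, with overlapping groups and a change of 0.04 ± 0.33 in Atg7-KO (adjusted p = 0.945) that turned below 0 without cont. replicate 3 (-0.31) or Atg7-KO replicate 3 (-0.15).

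**Figure D2:**
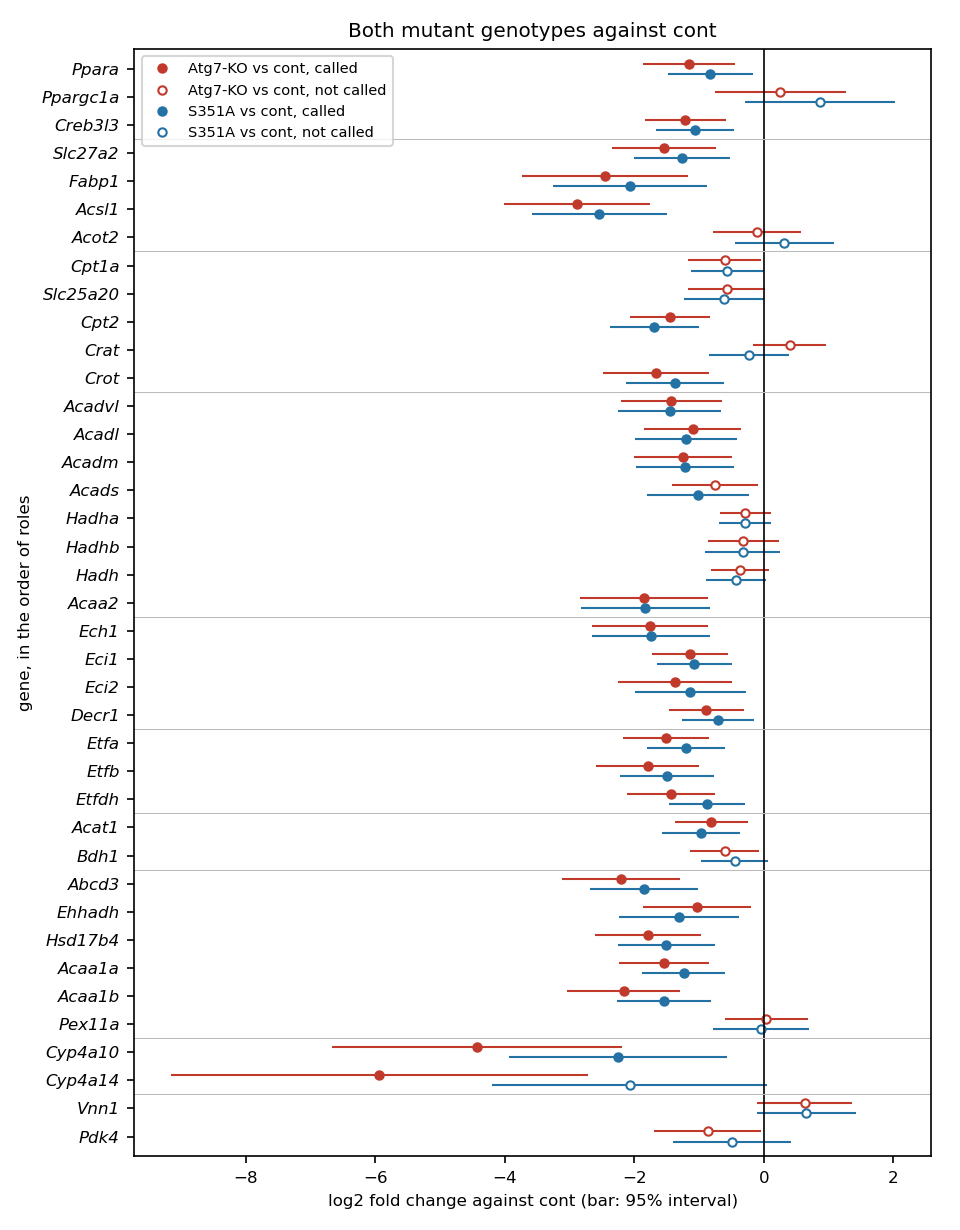
Log2 fold changes of the 39 genes (in the order of roles) in Atg7-KO (red) and S351A (blue) against cont., with 95% intervals; filled points are called (adjusted p below 0.05 and fold above 1.5). Filled points lie left of 0 in every role but the last, and the intervals of Cyp4a10 and Cyp4a14 are the widest.

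The omega-hydroxylases Cyp4a10 and Cyp4a14 had the largest decreases in Atg7-KO and the widest spread. Both lie in the Cyp4a cluster of chromosome 4 (Cyp4a14 at 115486200 to 115496142, - strand, and Cyp4a10 at 115518264 to 115533649, + strand) and are among the most responsive PPARα targets of mouse liver. Cyp4a14 stood at 13.9, 743 and 173 CPM in cont., a 53.5-fold range, at 2.53, 6.06 and 7.27 in Atg7-KO and at 54.8, 18.5 and 148 in S351A. The Atg7-KO values rest on 11, 17 and 16 counts and those of S351A on 48, 15 and 121. Every Atg7-KO library was below every cont. and every S351A library, while the S351A libraries lay within the range of cont. The Atg7-KO change was -5.94 ± 1.64 (adjusted p = 0.00199), and -4.32 without cont. replicate 2, the female library with the highest level (0.00289). In S351A the change against cont. was -2.07 ± 1.08 and was not called (adjusted p = 0.131). It was called without cont. replicate 1 (-2.65, adjusted p = 0.017) and with no filter on low counts (-2.17, 0.000278), while without cont. replicate 2 the change was only -0.43 (0.717), with the replicate number as a block -1.18 (0.378) and without S351A replicate 3 -3.09 (0.0729). Cyp4a10 measured 199, 1341 and 629.9 CPM in cont., 13.1, 48.1 and 40.0 in Atg7-KO and 55.9, 94.9 and 305 in S351A. Its Atg7-KO libraries were again below all others, and S351A replicate 3 was above cont. replicate 1. It fell by 4.44 ± 1.14 in Atg7-KO (adjusted p = 0.000948), or by 3.65 without cont. replicate 2. In S351A it fell by 2.25 ± 0.86 (adjusted p = 0.034), a call lost without cont. replicate 2 (-1.47, adjusted p = 0.117), S351A replicate 1 (0.121) or S351A replicate 2 (0.132), while the change grew to -3.28 without S351A replicate 3. Of the read-length windows of Cyp4a10, 18.4% occur in Cyp4a31 or Cyp4a32, against none of those of Cyp4a14.

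Neither of the other PPARα targets on the list was called. Vnn1, the pantetheinase vanin-1, was at 39.8, 85.7 and 27.4 CPM in cont., 66.1, 98.4 and 70.9 in Atg7-KO and 75.3, 81.4 and 82.1 in S351A. Its change was 0.63 ± 0.37 in Atg7-KO (adjusted p = 0.166), and 1.26 with an adjusted p of 0.00227 without cont. replicate 2. Pdk4, the kinase that holds back pyruvate oxidation when fat is burned, was measured from 6, 8 and 8 counts in the S351A libraries. It stood at 18.3, 6.99 and 12.8 CPM in cont., 4.61, 9.27 and 6.81 in Atg7-KO and 6.84, 9.86 and 9.80 in S351A, with a change of -0.87 ± 0.42 in Atg7-KO (adjusted p = 0.0891, or 0.0209 without cont. replicate 2).

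**Figure D3:**
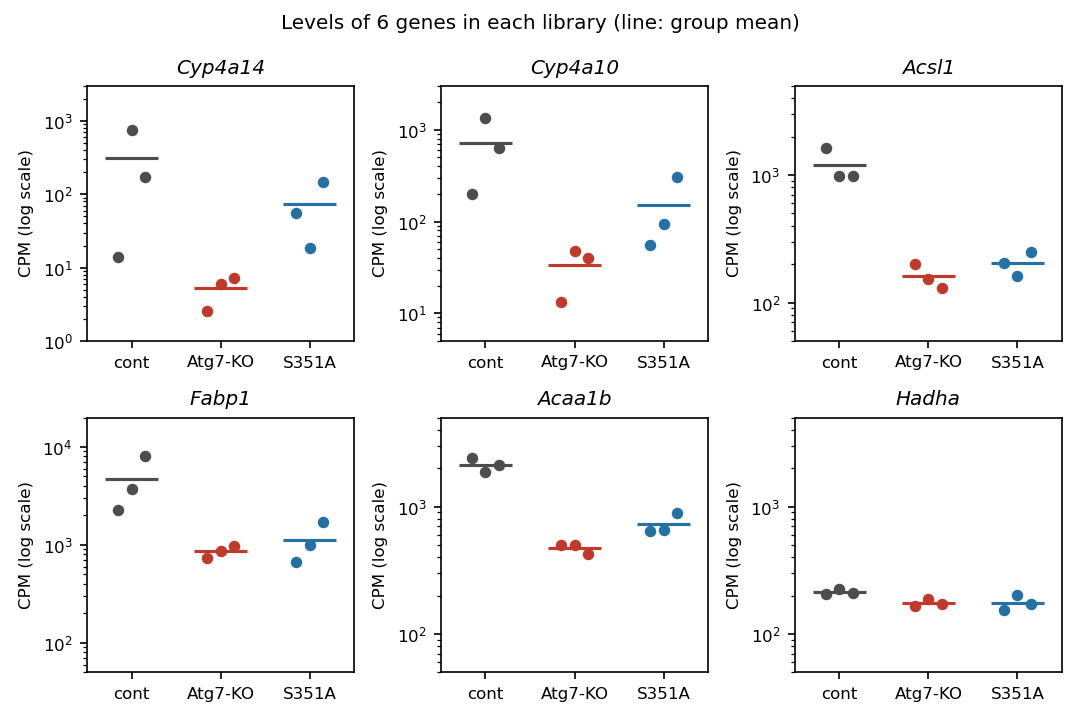
Levels in CPM (log scale, with axes of different ranges) of 6 genes in each library, replicates 1 to 3 from left to right, with a line at the group mean. Cyp4a14 and Cyp4a10 are spread widely in cont. and in S351A and low in Atg7-KO, Acsl1, Fabp1 and Acaa1b are lower in both mutant genotypes, and Hadha differs little.

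Between S351A and Atg7-KO, no member was called in either direction by edgeR or by DESeq2. Over all genes, edgeR called 0% higher and 0.00893% lower (1 gene). Of the members, 27 had a fitted change above 0 and 12 below, with a median of 0.15 against 0.01 over all genes, and without S351A replicate 3 the median was -0.02 with 21 members below 0. All S351A libraries lay above all Atg7-KO libraries in 5 members (Etfa, Abcd3, Acaa1b, Cyp4a10 and Cyp4a14; 7.67% of all genes) and below in 2 (Cpt2 and Crat; 9.23%). An unadjusted p below 0.05 was found for 4 of the 39 members, all higher in S351A, and for 6.6% of all genes, 3.38% higher and 3.22% lower. Cyp4a14 was the 5th highest of all 11199 genes by its change, 3.87 ± 1.40 (unadjusted p = 0.00578, adjusted p = 0.568), with an interval from 1.12 to 6.61. Cyp4a10 ranked 29th, with a change of 2.18 ± 0.86 (unadjusted p = 0.0115, adjusted p = 0.672). Without S351A replicate 3, the highest of its group for both, these changes were 2.86 and 1.17, and neither was called. Acaa1b changed by 0.62 ± 0.27 (unadjusted p = 0.0212, adjusted p = 0.697) and Etfdh by 0.56 ± 0.28 (unadjusted p = 0.0459, adjusted p = 0.754). At the other end were Crat (-0.62 ± 0.33, adjusted p = 0.769), Ehhadh (-0.28 ± 0.41, adjusted p = 0.931) and Acads (-0.26 ± 0.37, adjusted p = 0.93). These values do not show that the genotypes are alike. The 95% interval stayed within a 2-fold change in either direction for 29 of the 39 members and within a 1.5-fold change for 5, and its median half-width was 0.58 on the log2 scale. Fitted without the filter on low counts, Cyp4a14 (adjusted p = 6.4e-06) and Cyp4a10 (0.0011) were called higher in S351A, and on the 6 libraries of these genotypes alone Cyp4a14 was called (0.0457).

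**Figure D4:**
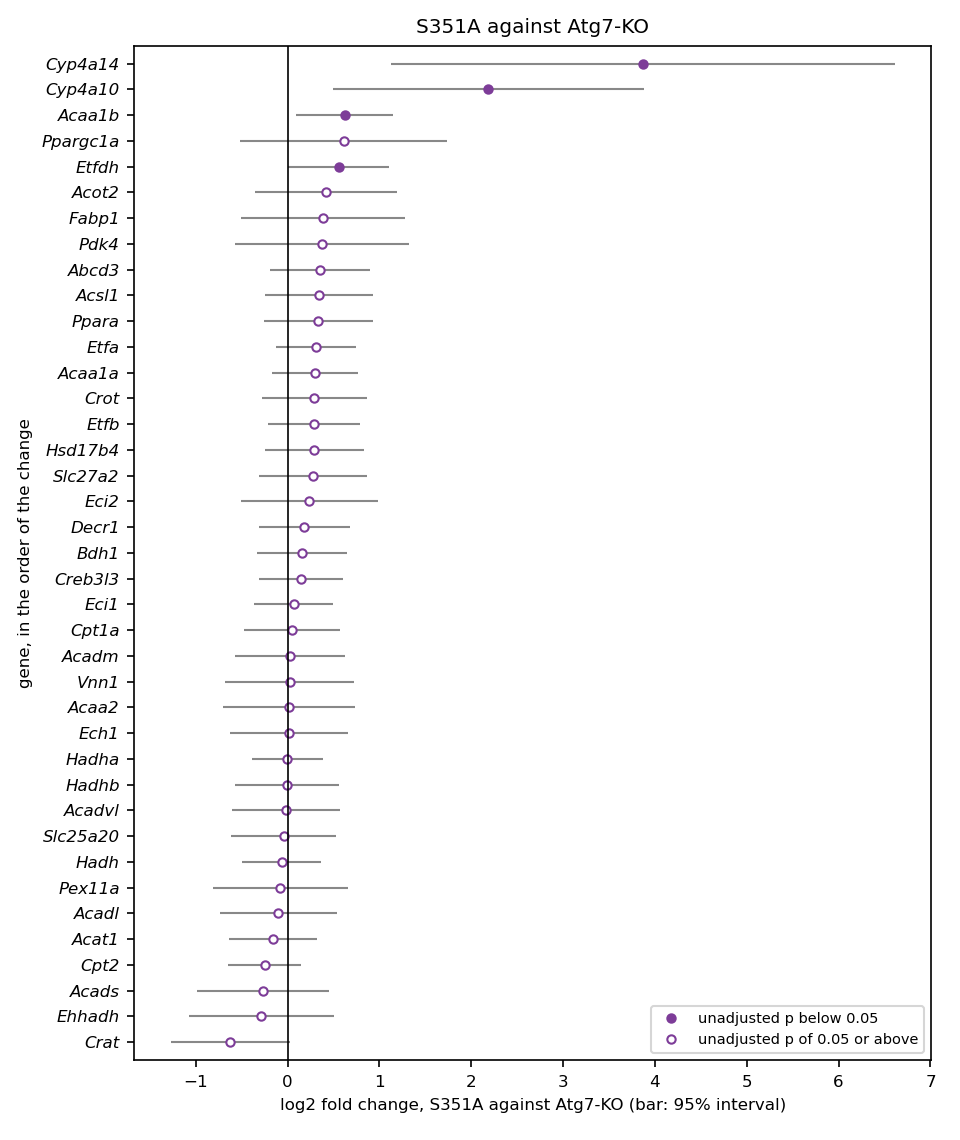
Log2 fold change of each of the 39 genes in S351A against Atg7-KO, sorted, with 95% intervals; filled points have an unadjusted p below 0.05. Cyp4a14 and Cyp4a10 stand apart at the top with intervals above 0, and most other intervals include 0.

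Other genes of the same pathways, from a longer list of 91 symbols of which 88 could be tested, moved mostly in the same direction. In Atg7-KO against cont. 47 fell and 10 rose, with a median of -0.88 (all genes: 18.1% lower, 19.9% higher). In S351A against cont. 40 fell and 7 rose, with a median of -0.79 (all genes: 13% lower, 15.6% higher). Between S351A and Atg7-KO none was called by edgeR (6 of 88 had an unadjusted p below 0.05, where 6.6% of all genes did). Not every role fell as a whole. In Atg7-KO against cont., 2 of the 4 other ketone body enzymes fell and 2 rose, and of 13 other PPARα targets tested 5 fell and 4 rose. The called decreases of largest size were in the omega-hydroxylases Cyp4a12b (-4.40 ± 1.60, adjusted p = 0.0196) and Cyp4a12a (-3.75 ± 1.42, adjusted p = 0.0257) and in Nudt7, a peroxisomal CoA hydrolase (-3.69 ± 0.90, adjusted p = 0.000486). Cyp4a12a and Cyp4a12b are known as male-biased genes. Within cont., Cyp4a12a was at 5.94 CPM in the female library and at 544 and 617 CPM in the male ones, Cyp4a12b at 0.35 against 172 and 263 CPM, and Nudt7 at 115 against 633 and 720.0 CPM. The groups differ in their numbers of males. With sex as a covariate, a fit chosen for these genes after their values were seen, the changes in Atg7-KO were -3.26 for Cyp4a12b (adjusted p = 0.00438) and -2.96 for Nudt7 (adjusted p = 0.000559), and -1.77 for Cyp4a12a, which was no longer called (adjusted p = 0.135). The called increases of largest size were in Fgf21, a hepatokine and PPARα target, Cidec, a lipid droplet protein, and Ucp2, a mitochondrial carrier. Fgf21 had 0, 2 and 1 counts in cont., 60, 20 and 13 in Atg7-KO and 5, 3 and 2 in S351A. By pooled counts scaled to library size, Fgf21 was 52.0 times higher in Atg7-KO than in cont., with an exact 95% interval for counting error of 17.3 to 257 (edgeR adjusted p = 0.000132). In the smaller S351A libraries it was 20.9 times higher than in cont. (interval 5.38 to 118). Cidec changed by 3.99 ± 0.85 (adjusted p = 7.04e-05) and Ucp2 by 2.39 ± 0.52 (adjusted p = 0.000108).

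The same groups also differed in markers of liver cell types. For the counts below, the shares of all genes tested were 18.1% called lower and 19.9% higher in Atg7-KO. In S351A they were 13% and 15.6%. Of 12 hepatocyte markers, 10 fell in Atg7-KO against cont. and 9 in S351A, with medians of -1.34 and -1.18, close in size to the members' medians. Their summed level was 58575 to 122223 CPM in cont., 37989 to 45523 in Atg7-KO and 36404 to 51628 in S351A, and cont. replicate 1, the lowest of its group, was also the lowest of cont. for 24 members. Ductular markers, with 7 of 10 tested, rose in 6 in each mutant genotype, from summed levels of 52.1 to 87.1 CPM in cont. to 827 to 1222 in Atg7-KO and 734 to 1227 in S351A. Stellate and matrix markers rose in 7 of 8 tested in each, from 251 to 502 CPM to 1226 to 1673 CPM and 1143 to 1628 CPM. Of 16 macrophage markers, 11 rose and 1 fell in Atg7-KO, with sums of 264 to 424 CPM in cont., 543 to 682 in Atg7-KO and 446 to 488 in S351A, whereas of 8 endothelial markers 1 rose and 2 fell. Among the marker genes, Gpnmb and Timp1 had no counts in any cont. library. Of 11 circadian clock genes tested, 5 fell in Atg7-KO (median -0.99), and the time of tissue collection is not given in the sources used here. The part of cell composition, of a general decrease of hepatocyte transcripts or of time of day in the changes of the module was not tested.

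**Figure D5:**
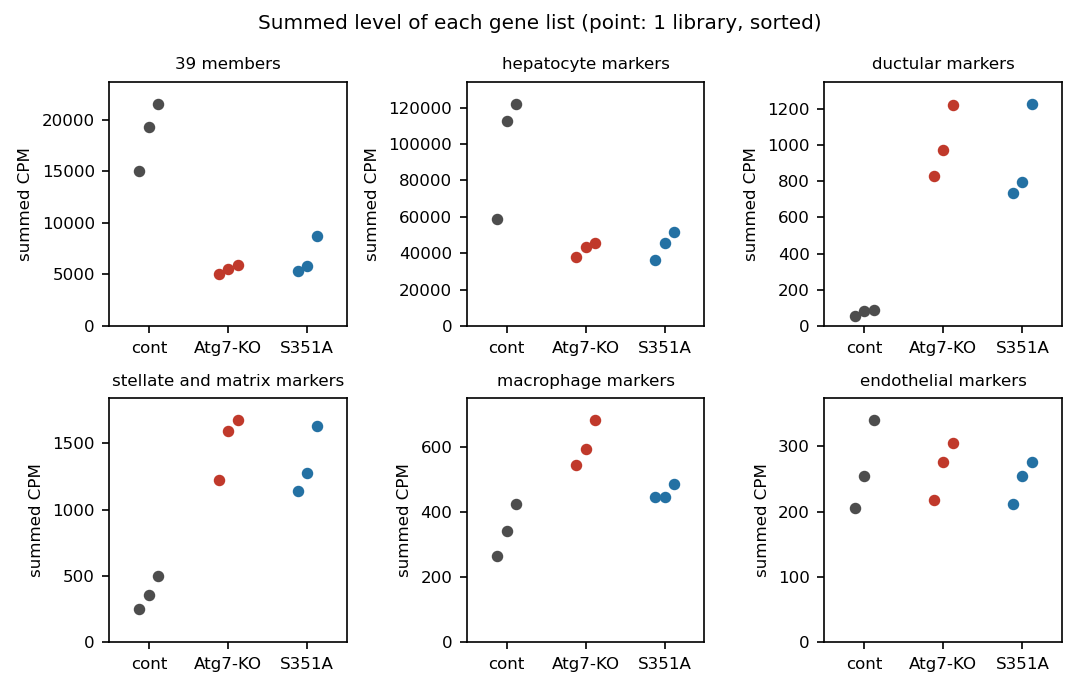
Summed level in CPM (linear axes from 0) of the 39 genes and of 5 lists of cell type markers, with 1 point for each library, sorted within its group. The 39 genes and the hepatocyte markers are lower in both mutant genotypes, the ductular, stellate and matrix and macrophage markers are higher, and the endothelial markers overlap.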

How the data were processed

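The authors sequenced poly(A) RNA as 75-base single-end reads, aligned them with STAR (genome mm10) and used RSEM to quantify genes, and the submitters' processing notes also name Trim Galore. The deposited values are expected counts, unscaled estimates of reads per gene, and 4.40% to 7.75% of the values in a library were not whole. Versions, annotation and strand setting are not given in the sources used here. After rounding, filterByExpr of edgeR 4.0.16 (R 4.3.3; minimum count 10, minimum total 15) kept 11199 genes. With TMM scaling, edgeR's quasi-likelihood test was run on all 9 libraries in 1 model of the 3 groups. Adjusted p-values follow Benjamini and Hochberg over all genes tested. Standard errors and 95% intervals are those implied by the p-value, and log2 CPM used a prior count of 2. Floors and count intervals cover counting error alone, because PCR copies could not be told from separate molecules. The fit was also run on simulated data, and the outcome of that run is not reported here. Nothing says how the 3 livers of a group were chosen, so p-values measure the spread between these samples.

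The members, the gene lists and the alternatives were chosen with earlier results of these data known. All members were described, with tests in Atg7-KO against cont. for all of them. Tests in S351A against cont. are given for those called there and for Cyp4a14, which was not called. In S351A against Atg7-KO they are given for those with an unadjusted p below 0.05 or among the 3 highest or lowest changes. Of the other pathway genes, the 3 called genes with the largest change in each direction were named. Some genes of the lists are counted but not reported here by name. The labels give the groups the same replicate numbers without saying what they mark. Deviations from the group means correlated with r of 0.160 to 0.235 between same-numbered cont. and S351A libraries, all above 0.1. Over the other same-numbered pairs r was -0.04 to 0.31, not all above 0.1. The main tests are unpaired, and the replicate number entered only as a block in 1 of the alternatives. Replicate 1 was male and replicate 2 female in every group, so replicate number and sex cannot be told apart for these. Shared sequence was measured as the share of 75-base windows of a gene's coding transcripts that occur in another gene of GENCODE release M21, which also gave positions in mm10. Alternatives were RLE size factors, total library size, DESeq2 1.42.0, leaving out the filter, requiring 10 counts in each library, the 6 compared libraries alone, the replicate number as a block, sex as a covariate, counts thinned to the smallest library, no fold threshold, and leaving out each library.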

Additional observations from a re-analysis of the deposited data

How the results depend on the processing

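In Atg7-KO against cont., 699 values for the 39 genes were computed under the alternatives. Of these, 635 kept their direction and side of the threshold, 32 were no longer called, 16 became called and 16 changed sign, all of the last in genes that were not called. In S351A against cont. 386 of 468 values for the 26 called genes held and 82 were no longer called, and none changed sign. In S351A against Atg7-KO 123 of 126 values for 7 genes held and 3 became called. The count of members called lower in Atg7-KO was 26, and 14 with counts thinned to the smallest library, where all genes called lower fell from 2028 to 460. It was 22 to 30 with a library left out. In S351A against cont. the 26 lower calls became 13 with total library size, 17 with the 6 compared libraries alone and 9 after thinning, where the share of all genes called lower went from 13% to 4.57%, 8.06% and 2.55%, and 17 to 28 with a library left out. Members called higher against cont. numbered 2 in Atg7-KO and 1 in S351A with total library size, and 0 to 2 and 0 to 1 with a library left out. Between S351A and Atg7-KO, 2 members were called higher with no filter (61 of all 19081 genes) and 1 with the 6 compared libraries alone (5 of 10180). The members' median was -0.69 in Atg7-KO and -0.66 in S351A with total library size, and -0.94 in Atg7-KO after thinning. With a library left out it was -1.42 to -1.08 in Atg7-KO, -1.29 to -1.00 in S351A, and -0.02 to 0.22 between them. Apart from the effect of thinning on depth, the causes of these differences were not tested.

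Changes of sign in Atg7-KO against cont. were these. Ppargc1a was -0.067 with sex as covariate and -0.78 after thinning (-0.037 to 0.87 with a library left out). Acot2 was 0.42 with total library size, 0.00099 with at least 10 counts in every library and 0.54 after thinning (-0.49 to 0.26). Acads was 0.086 after thinning. With total library size Hadha was 0.25, Hadhb 0.24 and Hadh 0.16. Pex11a was -0.0067 with no filter and -0.074 with sex as covariate (-0.31 to 0.42).

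With a replicate block, 26 members were called lower in each comparison with cont., in S351A the same 26 genes, 1 higher in Atg7-KO (Vnn1, 0.73) and 0 between S351A and Atg7-KO.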
